A study of Mus musculus with 26 samples.

Results

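H19, Igf2, Dlk1, Meg3, Rian, Mirg, Cdkn1c, Peg3, Mest and Grb10 are 10 imprinted growth genes of the mouse, followed here through muscle regeneration and myoblast differentiation. The members were taken by symbol, and each of the 10 matched 1 row in both tables, out of 53465 genes listed for regenerating muscle and 55487 listed for cultured myoblasts. Tibialis anterior (TA) muscle of 6-week-old male C57BL/6J mice was injured with cardiotoxin (CTX), a venom toxin under which fibers degenerate and then regrow, and sequenced on days 1, 3, 5 and 10 beside a day 0 group, with 2 libraries per day. Neither the labels nor the methods settle whether day 0 muscle was untouched or given saline, and they give no count of animals per library. Mouse C2C12 myoblasts, an immortalized muscle cell line, were sequenced in growth medium (GM) and on day 3 in differentiation medium (DM3), as a control line (CTRL) and as a Mettl3 knockdown line (Cas9M3), with 2 libraries per group. Mettl3 encodes the catalytic subunit of the m6A RNA methyltransferase. The knockdown line carried a lentiviral vector in which the hUbC promoter drives dCas9-KRAB, a repressor without nuclease activity, and the hU6 promoter drives guide RNAs against the Mettl3 promoter. It was a stable line selected with puromycin, the number of clones and the vector in the control line are not given in the sources used here, and the design text calls the same cells a knockout.

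Imprinted genes are expressed from the maternal or the paternal chromosome alone, and many of them set fetal and muscle growth. Igf2 encodes the paternally expressed fetal growth factor IGF2, and H19 beside it gives a maternally expressed noncoding RNA whose transcript holds miR-675. Dlk1 encodes a Notch-like transmembrane protein of progenitor cells and is paternal, whereas the noncoding RNAs Meg3, Rian and Mirg of the same domain are maternal and host small RNAs. Cdkn1c encodes the cell cycle inhibitor p57, and Grb10 encodes an adaptor that restrains insulin and IGF1 receptor signaling. Peg3 encodes a zinc finger protein, and Mest encodes a hydrolase-like protein whose intron holds miR-335. FPKM, the unit of both tables, counts fragments scaled to gene length and to a factor for each library, and does not separate the parental alleles.

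Of the members, 6 lie in 2 clusters. In GRCm38, H19 was annotated at chr7:142575529-142578143 and Igf2 at chr7:142650766-142666816, both on the minus strand. Cdkn1c lay further along at chr7:143458339-143461050, and Peg3 lay at the other end of the chromosome at chr7:6703892-6730431. Dlk1 at chr12:109452823-109463336, Meg3 at chr12:109541001-109571726, Rian at chr12:109603940-109661716 and Mirg at chr12:109729764-109749460 shared the plus strand of 1 domain that ends at Dio3. Mest was annotated at chr6:30723547-30748465 and Grb10 at chr11:11930508-12038683.

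The members and the spaces between them encode microRNAs, and the mature sequences below are those of 6 such genes. They are shown because the rows of these genes are followed beside their hosts. Mir675 lies in an exon of H19, Mir483 in an intron of Igf2, Mir335 in an intron of Mest and Mir541 in an intron of Mirg. Mir433 at chr12:109591715-109591838 and Mir127 at chr12:109592846-109592915 lie between Meg3 and Rian, opposite an exon of the protein-coding gene Rtl1. Sequences are from RefSeq on GRCm38.p6, written 5′ to 3′, with the seed (bases 2 to 8) in capitals.
miR-675-5p: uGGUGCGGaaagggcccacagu
miR-675-3p: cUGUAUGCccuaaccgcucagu
miR-483-5p: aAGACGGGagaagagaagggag
miR-483-3p: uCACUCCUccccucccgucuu
miR-335-5p: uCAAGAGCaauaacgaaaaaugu
miR-335-3p: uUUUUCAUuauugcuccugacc
miR-433-5p: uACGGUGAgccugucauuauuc
miR-433-3p: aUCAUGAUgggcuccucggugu
miR-127-5p: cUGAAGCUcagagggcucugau
miR-127-3p: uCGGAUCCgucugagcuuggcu
miR-541-5p: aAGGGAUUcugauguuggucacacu
miR-541-3p: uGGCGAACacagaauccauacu
The 12 mature sequences carried 12 different seeds, so none of them shared a seed with another. The libraries were made for mRNA, so a microRNA row counts fragments over its hairpin, from a precursor or a host transcript, and not the mature form.

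The sizes of the smallest values gave 14174079 to 18823229 reads on genes in the muscle libraries and 14230094 to 29567085 in the C2C12 libraries. The scaling did not follow these totals. A read on 1 kb was 0.0803 FPKM in replicate 1 of day 0, which had 16776205 reads. It was 0.0507 FPKM in replicate 1 of day 3, which had fewer reads, 14326348. Differences between days therefore rest on the library factors of the deposited values. The fit used log2(FPKM + 0.1) and limma, with Benjamini-Hochberg adjustment over the 16753 muscle genes or 13824 C2C12 genes that reached 0.5 FPKM in at least 2 libraries. A member was called where its adjusted p did not exceed 0.05, and log2 fold changes on this scale understate the change of low values. All 10 members passed the filter in muscle. For pairs of libraries the smallest two-sided p of an exact permutation test is 0.333, so every p below rests on the model. Nothing in the labels says that the 2 libraries of a group came from separate animals or cultures, so the spread behind p may be largely technical. Xist, the RNA of the inactive X chromosome, was at 5.77 to 10.0 FPKM in both libraries of day 0, both of day 10 and replicate 2 of day 3, and at 0.0170 to 0.152 FPKM in the other 5 muscle libraries, although the methods name male mice. Differences of days 0 and 10 from days 1 and 5 therefore cannot be told apart from this split. The 2 libraries of day 3 differ in Xist as well, so those 2 are not repeats of 1 RNA sample. The summed FPKM of 5 adult fiber genes, the defining markers of the labelled tissue, was 33231 and 33992 on day 0.

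Within a day of injury, none of the 10 members was called. On day 1 against day 0, limma called 0 of 10 members, where it called 6% of all genes tested, and 2 members had an unadjusted p under 0.05. The log2 fold changes ran from -1.15 (SE 0.52, adjusted p = 0.21) for Meg3 to 0.51 (SE 0.20, adjusted p = 0.16) for Peg3. Of the 10, 9 had a lower fitted level on day 1 than on day 0, and their median was -0.68. The day 0 libraries differed from each other in several members, and Dlk1, at 0.114 FPKM in one and 0.940 FPKM in the other, differed the most.

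Between day 0 and day 3, 5 of the 10 members rose, and none was called lower. Those 5 were Cdkn1c, Mest, Grb10, Igf2 and Peg3, and 24.5% of all genes tested were called higher in this comparison (48.8% in either direction). The median log2 fold change was 1.70 over the 10 members and 0.0075 over all genes tested. The plot of members by day shows these genes leaving their day 0 and day 1 levels on day 3.

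**Figure D1:**
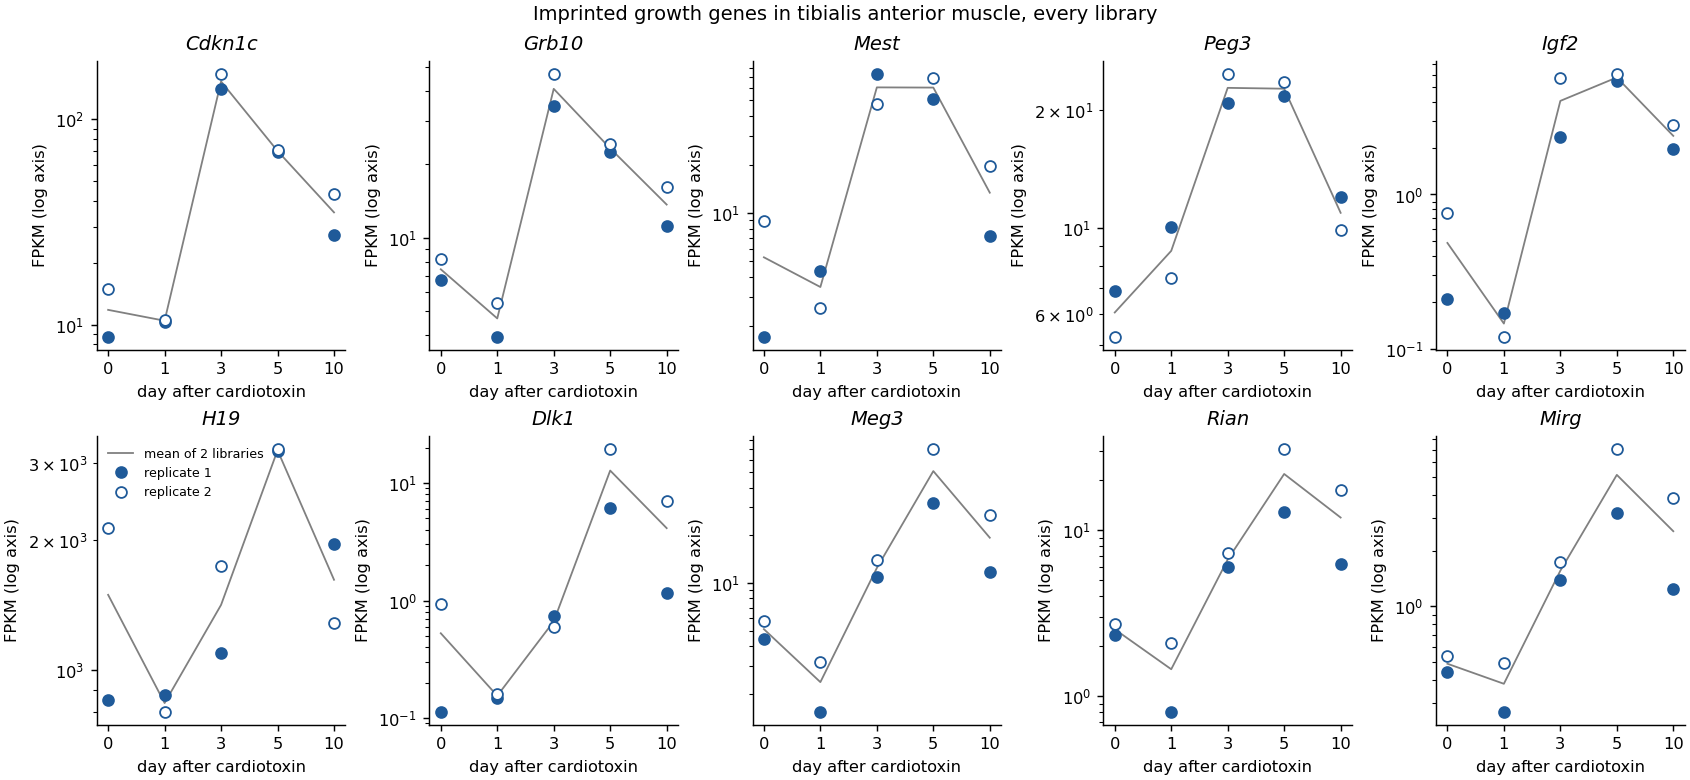
FPKM on a log axis of each of the 10 members in the 10 muscle libraries by day after cardiotoxin, with filled points for replicate 1, open points for replicate 2 and a line through the mean of the 2. Cdkn1c and Grb10 have their highest mean on day 3, Mest and Peg3 are level between days 3 and 5, and H19, Igf2, Dlk1, Meg3, Rian and Mirg have theirs on day 5.

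Cdkn1c was read at 8.74 and 14.8 FPKM on day 0, 10.3 and 10.5 on day 1, 140 and 166 on day 3, 69.5 and 70.8 on day 5, then 27.3 and 43.2 on day 10. Both day 3 libraries stood above all others, and the libraries of days 3, 5 and 10 did not overlap. The rise of this cell cycle inhibitor from day 0 to day 3 was 3.73 on the log2 scale (SE 0.28, adjusted p = 0.00027, limma). Against day 3, Cdkn1c differed by -1.12 on day 5 (SE 0.28, adjusted p = 0.042) and by -2.15 on day 10 (SE 0.28, adjusted p = 0.0014), both lower. The day 5 call was lost without either library of day 1, day 3 or day 5 (adjusted p 0.053 to 0.22). An opposite-strand row, Gm44732, covers 30.7% of the Cdkn1c exons and ran from 11.3 to 257 FPKM in muscle, and reads of the 2 strands cannot be told apart where counting did not use strand, which the sources used here do not state.

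Grb10, the receptor signaling adaptor, was read at 6.71 and 8.17 FPKM on day 0, 3.95 and 5.42 on day 1, 34.7 and 46.8 on day 3, 22.4 and 24.1 on day 5, then 11.2 and 16.2 on day 10. Its order of days was that of Cdkn1c on days 3, 5 and 10, without overlap between them. It rose by 2.43 (SE 0.24, adjusted p = 0.00042) from day 0 to day 3 and fell from day 3 to day 10, with a difference of -1.58 (SE 0.24, adjusted p = 0.0027). The step from day 3 to day 5 was not called (log2 fold change -0.79, SE 0.24, adjusted p = 0.074).

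Mest was read at 1.71 and 8.90 FPKM on day 0, 4.37 and 2.57 on day 1, 72.8 and 47.8 on day 3, 51.2 and 69.0 on day 5, then 7.22 and 19.5 on day 10. Days 3 and 5 overlapped fully and stood above the other 6 libraries. The rise to day 3 was 3.87 (SE 0.75, adjusted p = 0.0045) and the difference from day 3 to day 10 was -2.30 (SE 0.75, adjusted p = 0.045). That fall was no longer called without either library of day 1, day 3 or day 5 or without replicate 1 of day 10, where it ran from -2.60 to -1.59. The call was also lost with a pseudocount of 0.01 (adjusted p = 0.053), with no filter on low values (0.085) and with a term for libraries that express Xist (0.19). Copg2, which overlaps 23.1% of the Mest exons from the opposite strand, moved with it, from 2.88 FPKM in its lowest muscle library to 27.2 in its highest. Mir335 inside Mest did not exceed 1.55 FPKM in any library.

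Peg3 was read at 6.87 and 5.27 FPKM on day 0, 10.0 and 7.43 on day 1, 20.9 and 24.7 on day 3, 21.7 and 23.6 on day 5, then 11.98 and 9.85 on day 10. Its highest library was 4.69 times its lowest, and of the 10 members H19 alone had a narrower range in muscle, at 4.03 times. It rose by 1.90 (SE 0.20, adjusted p = 0.00048) to day 3 and fell from day 3 to day 10, with a difference of -1.06 (SE 0.20, adjusted p = 0.0062). Whichever muscle library was left out, the rises of Cdkn1c, Grb10, Mest, Igf2 and Peg3 from day 0 to day 3 were still called.

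Against day 1, the rise by day 3 took in more members. Limma called 8 of 10 higher on day 3 than on day 1, where it called 14.5% of all genes tested higher. The fitted differences were 4.10 (SE 0.75) for Mest, 3.96 (SE 0.54) for Igf2, 3.86 (SE 0.28) for Cdkn1c, 3.10 (SE 0.24) for Grb10 and 1.39 (SE 0.20) for Peg3, with adjusted p of 0.0014 to 0.0078. Meg3 at 2.42 (adjusted p = 0.013), Rian at 2.25 (adjusted p = 0.028) and Mirg at 1.82 (adjusted p = 0.040) were called as well. Those 3 calls were lost, leaving 5, without replicate 1 of day 1, without replicate 2 of day 3, and with a term for libraries that express Xist. Mirg was also lost with a pseudocount of 1 (adjusted p = 0.12), with no filter on low values (0.078) and with quantile normalization (0.057). The Mirg call was lost too without either library of day 0, replicate 2 of day 1 or replicate 1 of day 3. Rian was also lost with no filter on low values (adjusted p = 0.054) and without replicate 1 of day 3. Dlk1 (1.58, adjusted p = 0.25) and H19 (0.72, adjusted p = 0.25) were not called.

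By day 10, 4 members were lower than on day 3 and 0 were higher, where 18.8% of all genes tested were called lower and 19.1% higher. These were Cdkn1c, Grb10, Mest and Peg3, and the Mest call was lost in the fits named above. On day 10 against day 0, limma called 0 of 10 members and 0.00597% of all genes tested, while 8 members had an unadjusted p under 0.05. The 10 fitted differences from day 0 were positive, up to 2.68 (SE 0.98, adjusted p = 0.45) for Dlk1 and 2.25 (SE 0.54, adjusted p = 0.34) for Igf2.

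The 4 members of the Dlk1 to Dio3 domain reached their highest mean on day 5. Dlk1 was read at 0.114 and 0.940 FPKM on day 0, 0.148 and 0.161 on day 1, 0.734 and 0.594 on day 3, 6.16 and 19.4 on day 5, then 1.17 and 7.09 on day 10. Both day 5 libraries exceeded all libraries of days 0, 1 and 3, and replicate 2 of day 10 fell between them. From day 3 to day 5 Dlk1 rose by 3.86 on the log2 scale (SE 0.98, adjusted p = 0.042). In this comparison 2 of 10 members were called, Dlk1 higher and Cdkn1c lower, against 7.23% of all genes tested called higher and 5.46% called lower. The Dlk1 call was lost without either library of day 1, day 3 or day 5 (adjusted p 0.056 to 0.21).

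Meg3 was read at 4.46 and 5.78 FPKM on day 0, 1.55 and 3.20 on day 1, 10.9 and 14.0 on day 3, 31.9 and 69.8 on day 5, then 11.7 and 27.0 on day 10. Rian was at 2.33 and 2.73 FPKM on day 0, 0.808 and 2.10 on day 1, 6.04 and 7.27 on day 3, 12.9 and 30.7 on day 5, then 6.28 and 17.5 on day 10. Mirg was at 0.440 and 0.534 FPKM on day 0, 0.268 and 0.491 on day 1, 1.38 and 1.73 on day 3, 3.21 and 7.07 on day 5, then 1.24 and 3.85 on day 10. In all 3 the replicate 2 library was the higher of its pair on every day. Their steps from day 3 to day 5 were 1.93 for Meg3 (SE 0.52, adjusted p = 0.051), 1.57 for Rian (SE 0.61, adjusted p = 0.13) and 1.56 for Mirg (SE 0.55, adjusted p = 0.11), and none was called.

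Day 5 was also compared with day 0, a comparison added after the values had been seen. Of the 10 members 9 were higher, where 12.9% of all genes tested were called higher. The domain gave 4.55 for Dlk1 (SE 0.98, adjusted p = 0.020), 3.19 for Meg3 (SE 0.52, adjusted p = 0.013), 3.06 for Mirg (SE 0.55, adjusted p = 0.014) and 2.93 for Rian (SE 0.61, adjusted p = 0.018). Mest (3.88), Igf2 (3.50), Cdkn1c (2.61), Peg3 (1.89) and Grb10 (1.64) were called with adjusted p of 0.0076 to 0.016, and H19 was not (1.25, SE 0.44, adjusted p = 0.072). Without replicate 1 of day 0 the count was 1, Peg3, and without replicate 2 of day 5 it was 0. With a term for libraries that express Xist it was 0 of 10, and no gene of the table was called, since day 0 and day 5 differ fully in Xist.

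Most microRNA rows of the domain also had their highest mean on day 5. Of 118 genes annotated from Dlk1 to Dio3, 84 were above 0 in a muscle library and 56 had a mean of at least 1 FPKM on some day. Of those 56, 42 were microRNA rows, of which 39 had their highest mean on day 5 and 3 on day 10. Of the 55 microRNA rows above 0 in any muscle library, 49 peaked at day 5. Another 5 peaked at day 10, and 1 at day 0. With few reads per row, both cuts favor the day with the most reads, which was day 5. How often other low rows peak then was not counted, so these counts are descriptions. Summed over the 67 microRNA rows, the level was 12.9 and 17.9 FPKM on day 0, 4.18 and 17.5 on day 1, 35.1 and 52.1 on day 3, 155 and 294 on day 5, then 47.3 and 80.7 on day 10. These sums rest on 5 to 491 reads per library, because hairpins are short. As with the long RNAs, replicate 2 was the higher library on each of the 5 days.

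Mir433, whose seeds are printed above, was at 12.9 and 24.1 FPKM on day 5 and at most 4.86 FPKM on any other day. Mir127 was at 7.89 and 18.1 FPKM on day 5 and at most 6.46 elsewhere. Mir541 inside Mirg was at 4.77 and 13.5 FPKM on day 5 and at most 3.35 elsewhere. Rtl1, the retrotransposon-derived gene opposite Mir433 and Mir127, was at 3.98 and 7.61 FPKM on day 5 and at most 2.29 elsewhere, so part of the reads over these hairpins may belong to the other strand, which was not tested. Rtl1 rose by 2.63 from day 3 to day 5 (SE 0.57, adjusted p = 0.027, limma). Dio3, the deiodinase gene at the far end of the domain, was named after its values were seen and had its highest mean on day 3 (0.574 and 1.41 FPKM), not on day 5 (0.544 and 0.450 FPKM).

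**Figure D2:**
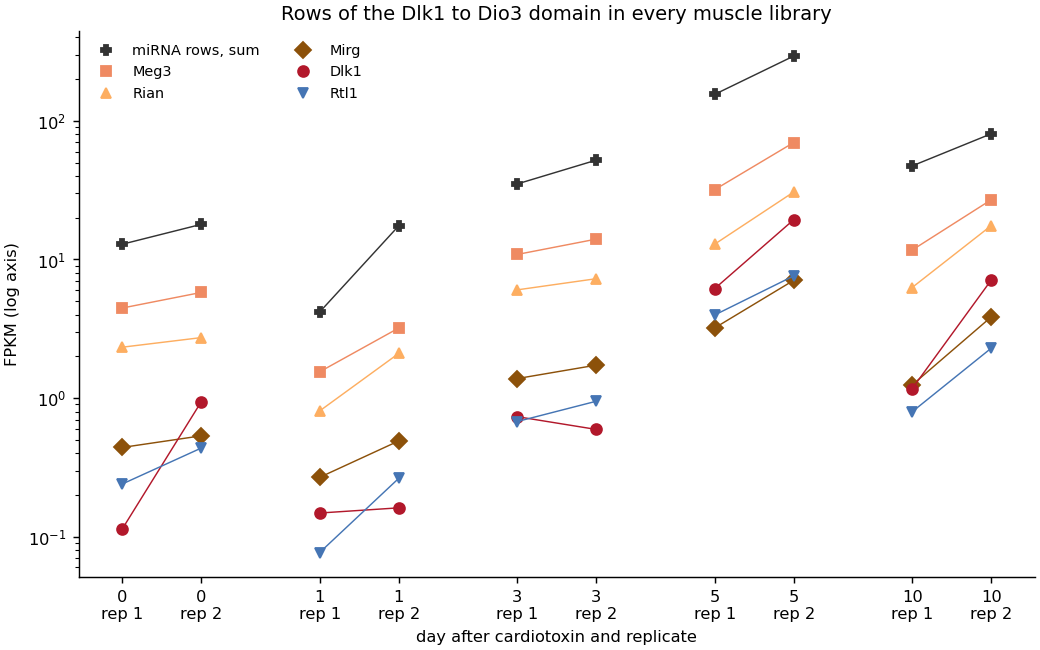
FPKM on a log axis of Meg3, Rian, Mirg, Dlk1, Rtl1 and the sum of 67 microRNA rows in each muscle library, with the 2 libraries of a day joined by a line. Meg3, Rian and Mirg run in parallel across all 10 libraries, and Dlk1 is the row whose day 0 and day 10 libraries lie furthest apart.

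H19 and Igf2 are neighbors on chromosome 7. H19 was the highest member in every muscle library, at 853 and 2131 FPKM on day 0, 877 and 803 on day 1, 1094 and 1734 on day 3, 3196 and 3231 on day 5, then 1950 and 1283 on day 10. The day 5 libraries stood above all others, and days 0, 3 and 10 overlapped. No comparison of H19 between days was called in the fit of all days, with a difference of 0.03 from day 0 to day 3 (SE 0.44, adjusted p = 0.96) and 1.22 from day 3 to day 5 (SE 0.44, adjusted p = 0.11). The sign of the first turned without replicate 1 of day 0 (-0.63) or replicate 2 of day 3 (-0.30), and quantile normalization turned the second to -0.28 (adjusted p = 0.70). Quantile normalization also called H19 higher on day 3 than on day 0, at 2.04 (adjusted p = 0.0065), on day 3 than on day 1, at 2.36 (adjusted p = 0.0072), and on day 5 than on day 0, at 1.76 (adjusted p = 0.031). The fit of days 3 and 5 alone called the step between them (adjusted p = 0.044). That normalization moved the median of all genes on day 3 against day 0 from 0.0075 to -0.12, the opposite direction to H19. The days on which H19 was called higher thus differed with the normalization, and the reason was not tested.

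Igf2 was read at 0.210 and 0.759 FPKM on day 0, 0.171 and 0.120 on day 1, 2.37 and 5.73 on day 3, 5.46 and 6.03 on day 5, then 1.97 and 2.83 on day 10. Days 0 and 1 lay below all other libraries, and days 3 and 5 overlapped. The rise from day 0 to day 3 was 2.88 (SE 0.54, adjusted p = 0.0038). Mir483, in an intron of Igf2, was at 0 in all 4 libraries of days 0 and 1, at 6.94 and 18.3 FPKM on day 3, 6.73 and 4.86 on day 5, then 1.12 and 2.07 on day 10. Mir675 was listed at 0 in all 18 libraries although H19 was abundant, and the sources used here do not state how reads that fall in 2 overlapping rows were counted.

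Ratios within a library show which members kept step. The ratio of Meg3 to Rian lay between 1.53 and 2.47 in all 10 muscle libraries, that of Rian to Mirg between 3.01 and 5.29, and that of Meg3 to Mirg between 5.77 and 10.8. Levels of Meg3 itself spanned 45.1-fold over the same libraries. Meg3 to Dlk1 ran from 3.61 to 39.3, and H19 to Meg3 from 46.3 to 567. H19 to Igf2 ran from 303 to 6705, the widest of the 8 ratios computed.

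**Figure D3:**
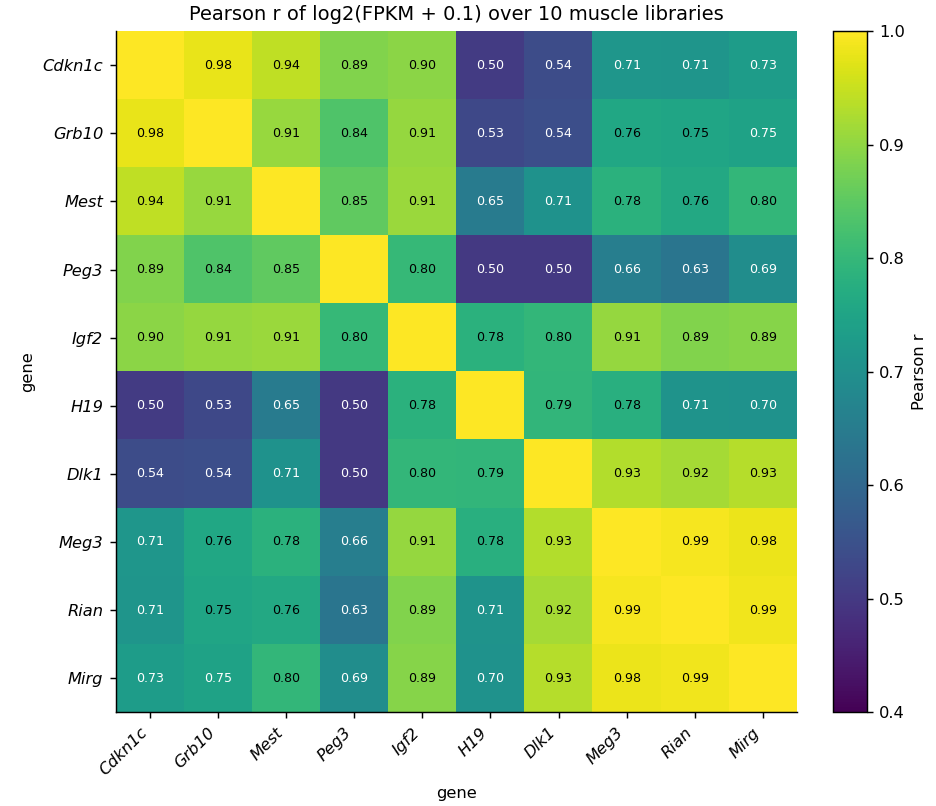
Pearson r of log2(FPKM + 0.1) over the 10 muscle libraries for each pair of members, as colors and numbers. Meg3, Rian and Mirg pair at 0.98 to 0.99 and Cdkn1c with Grb10 at 0.98, while H19 and Dlk1 pair with Cdkn1c, Grb10 and Peg3 at 0.50 to 0.54.

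Over the 10 libraries, which share days of regeneration and so are not independent points, all 45 pairs of members had a positive Pearson r, from 0.50 to 0.992 with a median of 0.783. Meg3 with Rian (0.992), Rian with Mirg (0.988) and Meg3 with Mirg (0.982) led, followed by Cdkn1c with Grb10 (0.980) and Cdkn1c with Mest (0.943). Dlk1 paired with the 3 noncoding RNAs of its domain at 0.918 to 0.934. Igf2 lay between the groups, at 0.905 with Meg3, 0.897 with Cdkn1c and 0.782 with H19. The lowest values were those of H19 and Dlk1 with Cdkn1c, Grb10 and Peg3. These are descriptions of 10 libraries with no test.

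With each day's mean removed, only what the 2 libraries of a day do together remains. The 2 deviations of a day mirror each other, so each r below rests on 5 differences, 1 per day, with no test. Meg3 and Rian still had r = 0.992 and Meg3 and Mirg r = 0.970. Dlk1 had 0.752 with Meg3 but 0.878 with Mest and 0.861 with Cdkn1c. Peg3 ran against the other 9 members, at -0.588 to -0.102. H19 kept 0.775 with Igf2 and had -0.034 with Meg3.

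Differences between the 2 libraries of a day were large for some members. Replicate 2 was 8.28 times replicate 1 for Dlk1 on day 0 and 6.06 times on day 10, and on day 5 it was 3.14 times for Dlk1, 2.19 times for Meg3 and 1.01 times for H19. Summed markers of fibroadipogenic progenitors and fibroblasts, 5 genes, were 76.2 and 195 FPKM on day 0, 79.5 and 187 on day 1, 668 and 728 on day 3, 744 and 901 on day 5, then 159 and 412 on day 10. Replicate 2 was the higher on every day there as well. The same 5 genes summed to 796 to 2090 FPKM in the C2C12 libraries, so they are not read in fibroblasts alone. Summed macrophage markers were 17.0 and 32.7 FPKM on day 0, 539 and 509 on day 3, 178 and 226 on day 5, then 31.8 and 92.0 on day 10. Summed markers of regenerating fibers were 11.4 and 32.2 FPKM on day 0, 672 and 1191 on day 3, 347 and 455 on day 5, then 34.2 and 83.8 on day 10. Summed adult fiber markers were 33231 and 33992 FPKM on day 0, 9727 and 9023 on day 3, 28022 and 28348 on day 5, then 40136 and 32126 on day 10. Summed markers of myoblasts and satellite cells were 28.8 and 23.5 FPKM on day 0, 333 and 317 on day 3, 65.9 and 63.0 on day 5, then 40.3 and 40.9 on day 10. Adult fiber genes were thus lowest, and myoblast genes highest, on the day when 5 of the members had risen. The part of these cell types in the members' levels was not tested, and in bulk tissue fewer cells of a type and less RNA per cell cannot be told apart.

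**Figure D4:**
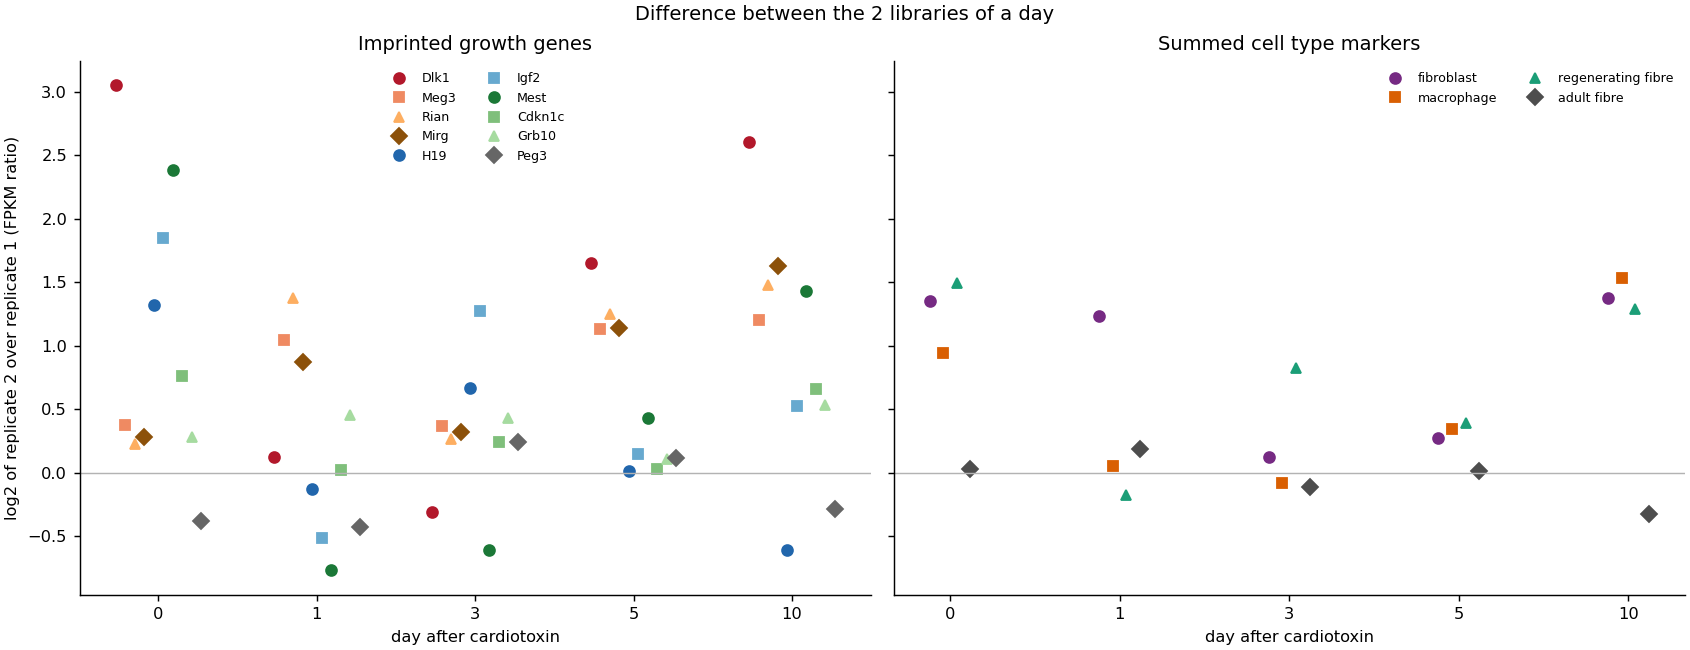
Log2 ratio of replicate 2 to replicate 1 by day after cardiotoxin, for the 10 members on the left and for summed markers of 4 cell types on the right, where 0 marks equal libraries. Dlk1 lies highest on days 0, 5 and 10, and fibroblast markers are above 0 on all 5 days.

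The genes most like 4 of the members were sought among 12285 genes with a mean of at least 1 FPKM, by Pearson r over the 10 muscle libraries. For Meg3 they were Gm26906 (0.986), Rtl1 (0.985) and Fzd10 (0.968), and for Dlk1 they included Rtl1 (0.957) and Ptger1 (0.956). Gm26906 lies wholly within Meg3 exons on the opposite strand, so its reads may be those of Meg3. For Igf2 they were Rab40b (0.982), Prepl (0.978) and Trim35 (0.971). For H19 they were Gm27483 (0.997) and Gm27786 (0.994), both inside H19 exons on the opposite strand, and Scaf1 (0.926).

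Other imprinted genes gave a mixed picture on day 3. Of 35 listed, 24 were tested in muscle, and against day 0 limma called 11 higher and 6 lower and did not call 7, with a median log2 fold change of 0.91, where 24.5% of all genes tested were called higher and 48.8% in either direction. The 3 largest calls were Peg10 at 3.95 (SE 0.48, adjusted p = 0.00069), a retrotransposon-derived gene, Zdbf2 at 3.69 (SE 0.26, adjusted p = 0.00026), and Copg2 at 2.38 (SE 0.40, adjusted p = 0.0025), whose overlap with Mest is given above. Peg10 was read at 0.193 and 0.292 FPKM on day 0, 3.10 and 8.50 on day 3, 2.95 and 3.47 on day 5, then 0.245 and 0.498 on day 10. The 6 called lower, named after their values were seen, were Snrpn, Peg13, Zrsr1, Trappc9, Gnas and Ube3a, with log2 fold changes of -1.76 for Snrpn to -0.59 for Ube3a. From day 3 to day 5, 2 of the 24 were called higher, Rtl1 and Gnas, and 0 lower, where 7.23% of all genes tested were higher and 5.46% lower. From day 3 to day 10, 3 were called higher and 7 lower, where 19.1% of all genes tested were higher and 18.8% lower.

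A list of receptors and binding proteins of IGF2 was counted in the same way. It also held Igf2bp1, Igf2bp2 and Igf2bp3, which encode RNA-binding proteins. Of 12 genes, 10 were tested in muscle, and on day 3 against day 0 limma called 4 higher and 1 lower, a share near the 48.8% of all genes tested. Igf2r, the imprinted receptor that clears IGF2, rose by 0.87 (SE 0.12, adjusted p = 0.0011) and the secreted binding protein gene Igfbp2 by 2.38 (SE 0.66, adjusted p = 0.020). Insr, the insulin receptor gene, fell by 1.15 on the log2 scale (SE 0.14, adjusted p = 0.00075). Igf2bp2, whose product binds IGF2 mRNA, was the gene of this list called on day 1, at 3.21 (SE 0.46, adjusted p = 0.020).

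In C2C12 cells most of the members were barely read. The knockdown was checked first. Mettl3 was at 4.70 and 5.65 FPKM in control GM, 4.68 and 5.15 in control DM3, 0.331 and 0.118 in knockdown GM, and 0.148 and 0.0805 in knockdown DM3. The knockdown differed by -4.56 in DM3 (SE 0.40, adjusted p = 0.019), and by -4.10 in GM (SE 0.40, adjusted p = 0.19), where limma called 0 genes. The Mettl3 exons share 933 bases with Tox4 on the opposite strand.

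Meg3 had 0 reads in all 8 C2C12 libraries, which allows at most 0.0172 FPKM at 3 reads in the shallowest, counting error only. Rian and Mirg had 1 read each over the 8 libraries, Dlk1 had 2, Igf2 had 13 and Grb10 had 15. The highest value among these 6 was 0.0385 FPKM, of Igf2 in replicate 1 of control GM, and none of the 6 was tested. From Dlk1 to Dio3, 7 of 116 listed genes were above 0, the pseudogene Gm3379 was the 1 gene with a mean of at least 1 FPKM, and all 67 microRNA rows were at 0. The tables were scaled separately, so muscle and C2C12 levels were not compared by a test. C2C12 libraries held little Pax7, the satellite cell marker (at most 0.0373 FPKM), and Myog, the myogenic factor of differentiating cells, was at 89.1 and 83.3 FPKM in control DM3.

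The low Igf2 values in C2C12 may miss its exons. The C2C12 table lists Gm49394, a protein-coding row at chr7:142650769-142669942 on the Igf2 strand that shares 62.8% of the Igf2 exons, and the muscle table does not list it. It was at 0.0730 and 0 FPKM in control GM, 2.18 and 0.621 in control DM3, 0.395 and 0.0345 in knockdown GM, and 0.0151 and 0.0144 in knockdown DM3. Both control DM3 libraries stood above all others. This row was chosen after its values were seen and reached 0.5 FPKM in those 2 libraries alone, so no test is given.

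H19, Mest, Peg3 and Cdkn1c, 4 of the 10, passed the filter in C2C12. Cdkn1c reached 0.5 FPKM in the 4 knockdown libraries alone, and Mest in 3 libraries, so both had to differ to be tested at all. No member was called between DM3 and GM, with 0 of 4 called by limma in control cells (1.14% of all genes tested, 1 member with an unadjusted p under 0.05) and 0 of 4 in knockdown cells (0.0289% of all genes tested, 0 members with an unadjusted p under 0.05). Between knockdown and control, 0 of 4 were called in GM (0% of all genes tested, 2 members with an unadjusted p under 0.05) and 1 of 4 in DM3 (1.98% of all genes tested, 1.29% higher).

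**Figure D5:**
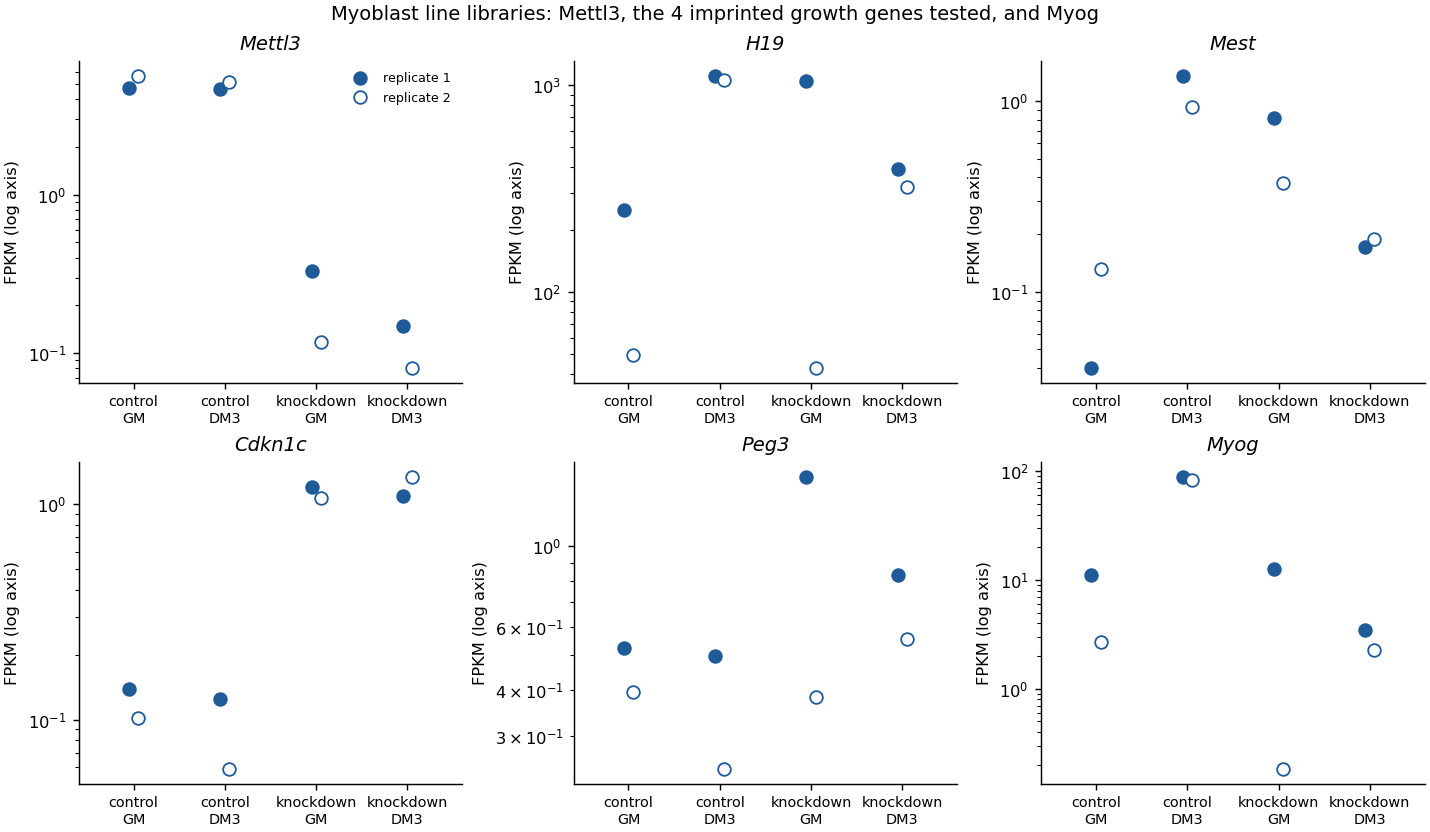
FPKM on a log axis in the 8 C2C12 libraries of Mettl3, the 4 members tested and Myog, with filled points for replicate 1 and open points for replicate 2. All 4 knockdown libraries exceed all 4 control libraries in Cdkn1c, and the GM libraries of H19 lie far apart, at 249 and 49.7 in control and 1051 and 42.8 in knockdown.

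Cdkn1c was the member called, and since it entered the test through the knockdown libraries alone, its test is given as a description. It was read at 0.139 and 0.102 FPKM in control GM, 0.125 and 0.0589 in control DM3, 1.20 and 1.07 in knockdown GM, and 1.09 and 1.34 in knockdown DM3. The control values rest on 2 to 9 reads per library and the knockdown values on 40 to 77. The knockdown and control libraries did not overlap in either medium, and the 2 media of each line overlapped. The difference was 2.79 in DM3 (SE 0.40, adjusted p = 0.033) and 2.49 in GM (SE 0.40, adjusted p = 0.29). With no filter on low values, where 27456 genes were tested, the DM3 difference had an adjusted p of 0.045. Its size depends on the pseudocount, from 1.02 with 1 to 3.66 with 0.01 in DM3, and from 0.93 to 3.15 in GM. The DM3 call was lost without replicate 1 or 2 of control DM3 or of knockdown DM3 (adjusted p 0.27 to 0.42), fits in which limma called no gene, and with a filter at 1 FPKM (adjusted p = 0.053).

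Genes beyond the members were counted too, and those named were chosen after their values were seen. Slc22a18, an imprinted transporter gene of the same chromosome 7 domain as Cdkn1c, was the gene called among the 14 other imprinted genes tested. It was at 0.148 and 0.305 FPKM in control GM, 0 and 0.0707 in control DM3, 1.47 and 3.81 in knockdown GM, and 2.70 and 2.68 in knockdown DM3. The knockdown libraries lay above the control libraries in both media, and it passed the filter through them alone, so its call is no support for a difference. Among the IGF2 list, Igfbp3, a secreted binding protein gene, was the 1 of 10 called in DM3, at 2.65 (SE 0.33, adjusted p = 0.026), with 9.85 and 10.4 FPKM in control and 58.7 and 69.4 in knockdown.

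H19 was read at 249 and 49.7 FPKM in control GM, 1111 and 1060 in control DM3, 1051 and 42.8 in knockdown GM, and 395 and 322 in knockdown DM3. Both control DM3 libraries exceeded both control GM libraries, whereas knockdown DM3 fell between the knockdown GM libraries. H19 differed by 3.28 between control DM3 and control GM (SE 1.47, adjusted p = 0.30) and by -1.60 between knockdown DM3 and control DM3 (SE 1.47, adjusted p = 0.68). In a fit of the DM3 libraries alone, the latter had an SE of 0.20 and an adjusted p of 0.0078, since the GM libraries no longer entered the spread.

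Replicate 2 of control GM stood apart, since 1 row, Gm23935, held 354482 of its summed 935736 FPKM, against at most 60725 in the other C2C12 libraries. Without it, H19 differed by 2.12 between control DM3 and control GM (adjusted p = 0.59), and without replicate 1 of control GM by 4.45 (adjusted p = 0.10). The GM libraries high in H19 were also high in muscle genes. Myog was at 11.1 FPKM in replicate 1 and 2.70 in replicate 2 of control GM, and at 12.7 and 0.182 in knockdown GM. Summed adult fiber markers were 109 and 9.75 FPKM in control GM and 70.2 and 3.17 in knockdown GM. In DM3, Myog was at 3.50 and 2.28 FPKM in the knockdown, below the control values given above, and H19 was lower there too. How far H19 follows differentiation in these libraries was not tested.

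Mest was read at 0.0399 and 0.131 FPKM in control GM, 1.36 and 0.929 in control DM3, 0.819 and 0.373 in knockdown GM, and 0.173 and 0.190 in knockdown DM3. In control cells both DM3 libraries stood above both GM libraries, and in knockdown cells both stood below. The difference between DM3 and GM was 2.77 in control (SE 0.53, adjusted p = 0.076) and -1.23 in knockdown (SE 0.53, adjusted p = 0.42). Mest passed the filter only through both control DM3 libraries and replicate 1 of knockdown GM, so its p-values are given as a description. Without replicate 2 of control GM the control difference was 3.13 (adjusted p = 0.089), and without replicate 1 it was called at 2.41 (adjusted p = 0.037). In a fit of the DM3 libraries alone the difference of -2.12 between knockdown and control DM3 had an adjusted p of 0.013, against 0.11 in the fit of all groups. Among the DM3 libraries Mest reached 0.5 FPKM in control alone, so it had to differ to be tested there. That p is therefore given as a description. Copg2, opposite Mest, stayed between 8.24 and 12.4 FPKM in C2C12.

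Peg3 was read at 0.524 and 0.395 FPKM in control GM, 0.498 and 0.243 in control DM3, 1.55 and 0.384 in knockdown GM, and 0.830 and 0.555 in knockdown DM3. Knockdown DM3 lay above control DM3, by 0.79 (SE 0.66, adjusted p = 0.64), and the GM groups overlapped. The effect of the knockdown was also compared between DM3 and GM. Limma called 0 of 4 members and 0% of all genes tested in that comparison, while 1 member, Mest, had an unadjusted p under 0.05. H19 gave a difference between stages of -2.53 (SE 2.08, adjusted p = 0.77).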

How the data were processed

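Muscle and C2C12 libraries were prepared by the authors with the SMARTER mRNA-Seq kit, aligned to GRCm38 with HISAT2 and counted with featureCounts, and the authors deposited FPKM values made with DESeq2, in 2 tables scaled separately. Whether counting used strand is not given in the sources used here. Gm27483, opposite H19, was at 4798 to 19619 FPKM in muscle, above H19 in every library. In C2C12 it was at 3.84 to 212 FPKM, below H19 in every library. Gm44732, opposite Cdkn1c, was at 11.3 to 257 FPKM in muscle and at most 0.200 in C2C12. Whether the 2 tables differ in their use of strand was not tested. Low values were compared with exon lengths of GENCODE M21, and 97.2% to 99.0% were whole reads within 0.05 reads, which gave reads per gene. These reads were not tested.

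Values were fitted with limma 3.58.1 (lmFit, eBayes with trend) in R 4.3.3 on log2(FPKM + 0.1), all groups of a table together. Plots used Python 3.11.15 and matplotlib 3.10.9. The fit was tested on simulated data with known changes. Ratios, correlations and marker sums are descriptions. The members, gene lists and tests were chosen with earlier results of these data known. Named genes were all members, the 3 other imprinted genes with the largest calls on day 3 against day 0, some genes of the host loci with a mean of at least 1 FPKM, and the 3 genes most like Igf2, H19, Dlk1 and Meg3. Of the 42 microRNA rows of the Dlk1 to Dio3 domain with such a mean, only Mir433, Mir127 and Mir541 were named. No fixed rule picked them, and each had its highest mean on day 5. 1 of the genes most like Dlk1 is not reported here. Control DM3 against GM called 0 of the other imprinted genes. Alternatives were pseudocounts of 1 and 0.01, other filters on low values, quantile normalization, fits of the groups compared, a replicate block, a fold threshold, a term for Xist and each library left out. In C2C12, same-numbered libraries deviated together (6 correlations, 0.278 to 0.680), so the numbers pair them. The main fit did not use this pairing, and the replicate block did. The C2C12 replicate 1 libraries held 25168048 to 29567085 reads on genes, with mt-Co1 as the highest row. Replicate 2 libraries held 14230094 to 18898372, with Gm23935 or CT010467.1 as the highest row. The 8 Mettl3 overexpression samples of the 26 in the series were not analysed here.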

Additional observations from a re-analysis of the deposited data

Results flagged for a closer look

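Mest in C2C12 cells was set apart because control and knockdown cells moved in opposite directions from GM to DM3. Both control DM3 libraries were above both control GM libraries, and both knockdown DM3 libraries were below both knockdown GM libraries. The test of the difference between the stages gave -4.00 on the log2 scale (SE 0.75, unadjusted p = 0.0015, adjusted p = 0.27, limma), so it did not pass after adjustment, and over fits that left out 1 library it ran from -4.48 to -3.52. Its size depends on the pseudocount, from -1.40 with 1 to -5.32 with 0.01. The difference was tested on the gene that showed the pattern, in the same libraries. Mest reached 0.5 FPKM only in both control DM3 libraries and replicate 1 of knockdown GM, so it was tested through the groups high in this pattern. The p is therefore given as a description. The values rest on 5 to 147 reads per library.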

How the results depend on the processing

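Low reads limit Cdkn1c and Mest in C2C12, where 3 reads on Cdkn1c correspond to 0.0463 to 0.152 FPKM. Of 56 reported differences of single members, 3 turned sign under any setting run. These were H19 from day 3 to day 5, at -0.28 with quantile normalization, and, without 1 library, H19 from day 0 to day 3 (-0.63 to 0.69, against 2.04 with quantile normalization, which called it) and Dlk1 from day 0 to day 3 (-0.45 to 1.83).

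Counts of members called moved as follows, and the causes were not tested beyond what each setting removes. With the replicate number as a block, muscle counts were 1 on day 1 against day 0, 8 on day 3 against day 0 and 6 on day 5 against day 3. The block changed no call of a member in C2C12. In muscle the correlations of same-numbered libraries over all genes tested were -0.0187 to 0.211. Such low values do not settle whether the numbers pair the libraries, and replicate 2 was the higher on every day for Meg3, Rian and Mirg. With only the groups compared, counts were 8 on day 3 against day 0, 5 on day 5 against day 3 and 3 for the knockdown in DM3. In that DM3 fit Mest passed the filter through the control libraries alone and Cdkn1c through the knockdown libraries alone. With the term for Xist they were 0 on day 5 against day 0, 5 on day 3 against day 1 and 0 on day 5 against day 3. Day 5 against day 3 also gave 1 with a pseudocount of 0.01, 0 without a filter, 4 with quantile normalization and 1 with a log2 fold change of at least 2, a threshold that left 2 on day 10 against day 3. The knockdown in DM3 gave 0 with a filter at 1 FPKM, which left 2 members tested and an adjusted p of 0.053 for Cdkn1c. Without 1 library, counts ran from 0 to 10 on day 5 against day 0, 5 to 8 on day 3 against day 1, 0 to 3 on day 5 against day 3, 0 to 1 for control DM3 against GM (1, Mest, without replicate 1 of control GM) and 0 to 1 for the knockdown in DM3.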
